A study of Mus musculus with 25 samples.

Results

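The keratins, the small proline-rich proteins and the late cornified envelope proteins were followed through dextran sulfate sodium (DSS) colitis in mouse colon. Members were the genes that the array files name Krt, Sprr or Lce with a number and that had a probe marked as well above background in 3 or more of the 25 arrays. The array names 83 such genes, 48 keratins, 15 Sprr genes and 20 Lce genes, and 51 of them were measured by this rule, 38 keratins, 5 Sprr genes and 8 Lce genes, among 25500 genes tested. The filter was passed on exactly 3 arrays by Krt26, Krt39 and Krt72, and missed with 2 arrays by Krt25, Krt71, Krt82, Lce1h, Lce3e, Lce3f, Sprr2i and Sprr4. Of the 32 genes that were not measured, 16 were well above background on no array, among them Sprr3 and Sprr1b. Krt1, a keratin of the epidermis, was among the 8 that reached 1 array.

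The samples were whole colon of female mice aged 8 weeks on the C57BL/6J background, wild type (WT) or Card9-/-, with 1 mouse per array. Both genotypes were taken before DSS (day 0, 3 WT and 3 Card9-/-), after 7 days of 2% DSS in the drinking water (day 7, 5 WT and 4 Card9-/-), and after 5 further days on plain water (day 12, 5 WT and 5 Card9-/-). CARD9 is an adaptor of C-type lectin receptors in myeloid cells, and the labels limit its loss in the Card9-/- mice to no cell type. The comparisons ask how these genes respond to DSS, what remains after recovery and whether the genotypes differ. The Card9 probe was brighter in the arrays labelled Card9-/- (-1.52 to -0.48) than in those labelled WT (-6.84 to -2.93), so each direction between genotypes rests on the labels. In whole colon, fewer cells of a type and less RNA per cell cannot be told apart.

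Keratins are the intermediate filament proteins of epithelial cells, and each filament pairs a type I with a type II keratin. Simple epithelia such as the colon surface use KRT8, KRT18, KRT19 and KRT20, while stratified epithelia, hair and nail use other sets. SPRR and LCE proteins are precursors that transglutaminases cross-link beneath the plasma membrane of squamous cells into the cornified envelope. Both families lie in the epidermal differentiation complex on mouse chromosome 3, and genes of both are known to be induced when a barrier is injured.

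Levels below are log2 intensities relative to the 75th percentile of the same array, so 0 is that percentile, and they compare arrays for a probe, not genes with each other. Differences between group means are log2 values followed by their standard error (SE) from limma, and a gene was called where the Benjamini-Hochberg adjusted p over all genes tested was under 0.05. The share of probes well above background was 46.5% to 67.1% per array. Of the 51 members, 29 were well above background on all 25 arrays, 14 on 13 to 24 and 8 on 3 to 12, and none was saturated. The 8 dim members had a median level of -2.85 in WT day 7 replicate 5 and -2.90 in WT day 12 replicate 5, against -7.09 to -3.93 on the other arrays.

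**Figure D1:**
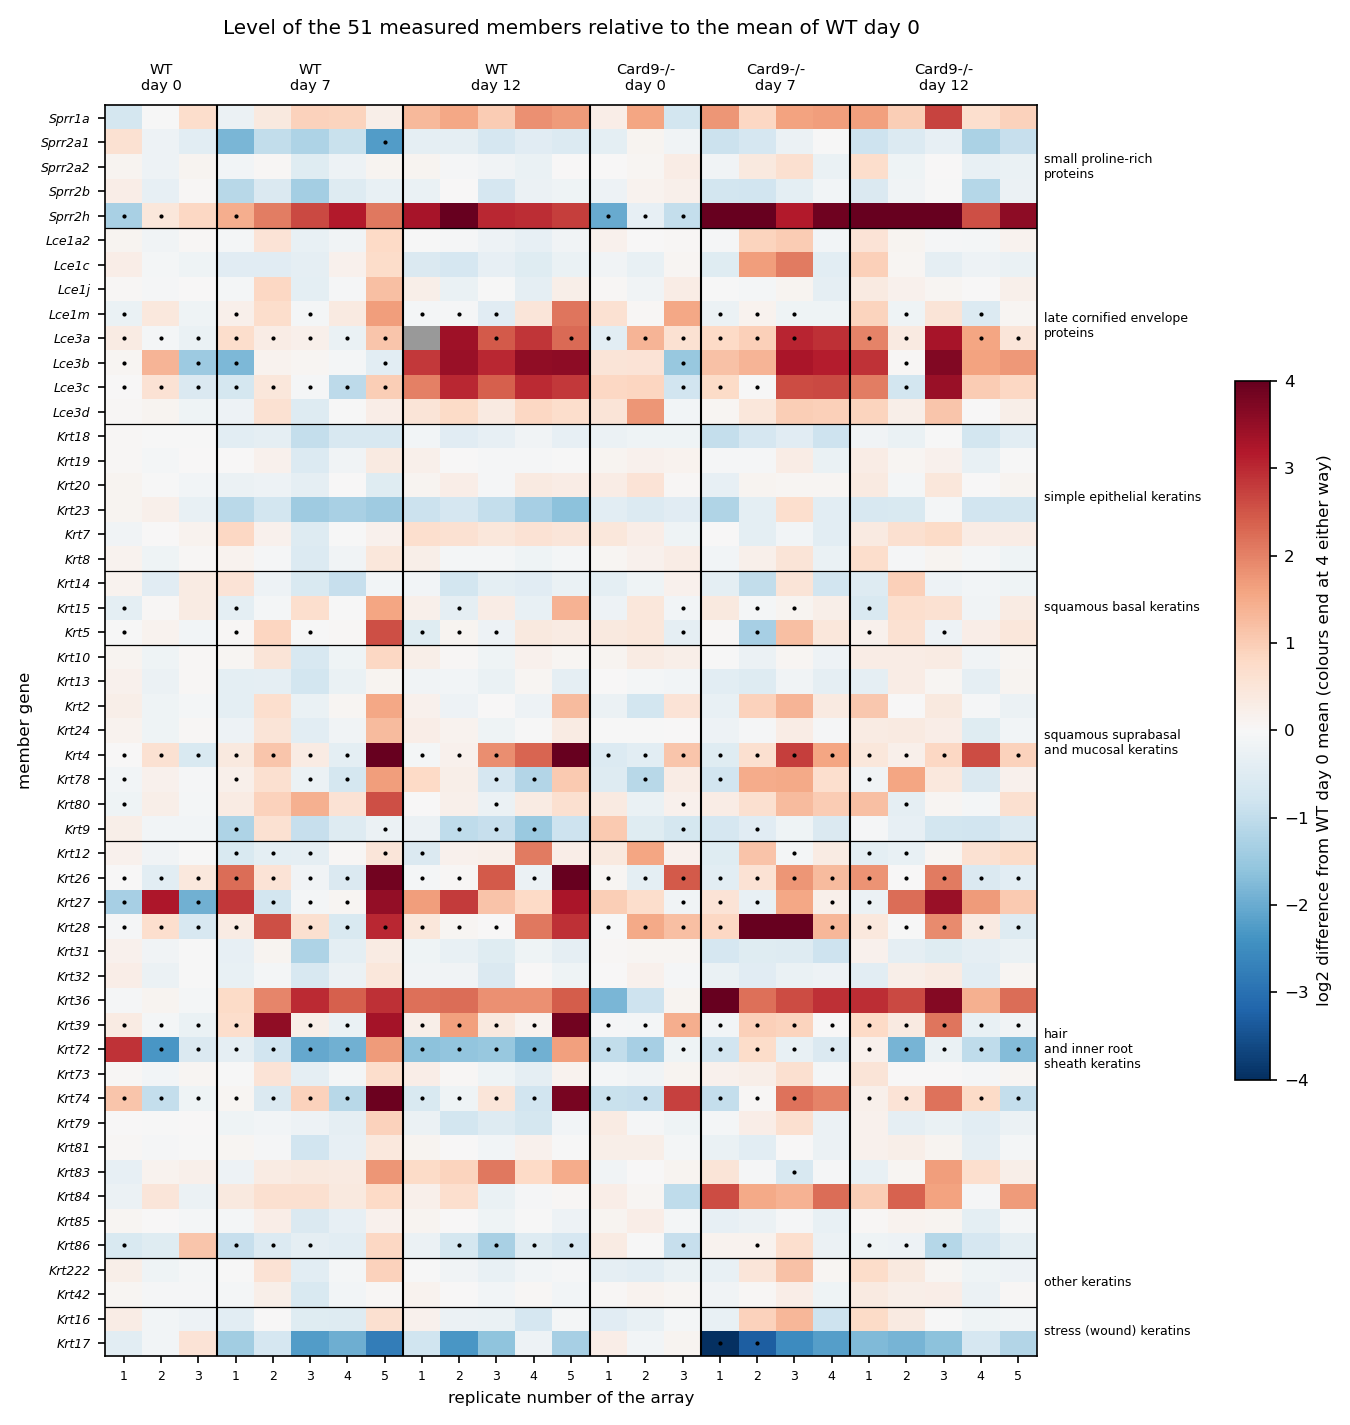
Colour shows the log2 level of each of the 51 measured members on each of the 25 arrays minus its WT day 0 mean, with genes grouped by role and a black dot on probes that were not well above background. Sprr2h and Krt36 are red at days 7 and 12, Lce3a, Lce3b and Lce3c are strongly red in WT at day 12 and on part of the Card9-/- arrays of both days, and Krt17 is blue after day 0, and the grey cell is the missing value of Lce3a in WT day 12 replicate 1.

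Most members did not pass the test in any comparison, and a small set moved in both directions. In all, 11 of the 51 members were called in at least 1 comparison and 40 in none. Among the 11 is Lce3a, which passed the filter through WT day 12, the group in which it was called as higher, so its call is no support for a change of the members. Sprr2h was well above background on 1 WT and 0 Card9-/- day 0 arrays. It likewise passed the filter through groups after day 0, in which it is high, so its calls in the counts below are no such support either. In WT at day 7 against day 0, 2 rose (Krt36 and Sprr2h) and 4 fell (Krt17, Krt18, Krt23 and Sprr2a1), 11.8% of the members, where 4.32% of all genes tested were called (2.01% higher and 2.31% lower). At day 12 against day 0 in WT, 4 rose (Krt36, Sprr2h, Lce3a and Lce3b) and 0 fell, 7.84% of the members against 1.73% of all genes, 1.13% of them higher. If Lce3a is left out 3 rose, and if Sprr2h is left out too, Krt36 and Lce3b remain. From day 7 to day 12 in WT only Lce3b was called among the members, as higher, where 0.486% of all genes were called and 0.365% were higher. In Card9-/- at day 7, 4 rose (Krt36, Krt84, Lce3b and Sprr2h) and 3 fell (Krt17, Krt18 and Krt31), 13.7% of the members, which lies below the 19.6% of all genes called there (6.9% higher and 12.7% lower). At day 12 against day 0 in Card9-/-, 3 rose (Krt36, Krt84 and Sprr2h), 5.88% of the members against 6.94% of all genes, 3.7% of them higher. From day 7 to day 12 Krt7 and Krt17 rose, 3.92% of the members against 7.69% of all genes, 5.72% of them higher. The shares in Card9-/- are thus near or below those of all genes. The median difference over the 51 members lay between -0.07 and 0.06 in these 6 comparisons, and that over all genes between -0.08 and 0.03.

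These counts rest on few arrays, and those over all genes moved as well when each array was left out in turn. In WT they were 393 to 1590 genes at day 7 and 112 to 646 at day 12 against day 0. From day 7 to day 12 in WT they were 28 to 227. In Card9-/- they were 3224 to 5485, 479 to 2100 and 1033 to 2524 for the same comparisons. The members called were as follows. In WT at day 7 against day 0, 0 members were called without WT day 0 replicate 1, 1 without replicate 2 and 3 without replicate 3, and 3 without WT day 7 replicate 4. In WT at day 12 against day 0 the count was 0, 2 and 1 without day 0 replicates 1, 2 and 3, 1 without day 12 replicate 2 or 5, and 2 without replicate 3 or 4. In WT from day 7 to day 12 it was 2 without WT day 7 replicate 5 or Card9-/- day 12 replicate 2 and 3 without Card9-/- day 12 replicate 3. In Card9-/- at day 7 it was 4 without day 0 replicate 3 or day 7 replicate 4, and each time Sprr2h, Krt36, Krt84 and Krt17 were those called. In Card9-/- from day 7 to day 12 it was 0 without day 7 replicate 2 and 1 without day 7 replicate 4 or day 12 replicate 2, 3 or 5.

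Without WT day 7 replicate 5 and WT day 12 replicate 5, the arrays with most probes above background, the calls in WT at day 7 of Krt18 (-0.60, adjusted p = 0.0518) and Krt17 (-1.57, adjusted p = 0.0908) were lost. At day 12 against day 0 those of Krt36 (2.02, adjusted p = 0.0798), Lce3a (2.90, adjusted p = 0.0516) and Lce3b (3.21, adjusted p = 0.0626) were lost too. In a fit on the compared groups alone, which has fewer arrays, all 6 calls in WT at day 7 were lost (adjusted p = 0.106 to 0.202). So were those of Krt18 and Lce3b in Card9-/- at day 7 (adjusted p = 0.0862 and 0.107), Krt17 from day 7 to day 12 (adjusted p = 0.083), Krt84 at day 12 (adjusted p = 0.168) and Lce3b in WT from day 7 to day 12 (adjusted p = 0.0551). When dim probes were kept, Krt31 in Card9-/- at day 7, Krt36 in WT at day 12 and Krt17 in WT at day 7 were not called (adjusted p = 0.0663, 0.0571 and 0.0565).

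The simple epithelial keratins, which form the filament network of the colon surface, were bright on every array. Of the 6 measured, Krt8, Krt19 and Krt20 were not called in any comparison, and their group means lay between 9.18 and 9.38, 8.39 and 8.56, and 7.80 and 8.36. Epcam, a marker of epithelial cells, was likewise bright, with group means of 4.83 to 5.18, as the labelled tissue would give. Krt18, the type I partner of Krt8, was 8.35, 8.28 and 8.29 on the WT day 0 arrays and 7.87, 7.96, 7.35, 7.67 and 7.67 at day 7. On the Card9-/- arrays it was 8.08, 8.12 and 8.12 at day 0 and 7.34, 7.62, 7.86 and 7.47 at day 7. In both genotypes every day 7 array lay below every day 0 array.

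Krt18 fell at day 7, with a difference of -0.60 ± 0.15 (SE) in WT (adjusted p = 0.026) and of -0.53 ± 0.16 in Card9-/- (adjusted p = 0.0221). By day 12 its means were 8.04 ± 0.15 (SD over 5 arrays) in WT and 7.99 ± 0.28 (SD over 5) in Card9-/-, with differences from day 7 of 0.33 ± 0.13 and 0.41 ± 0.14 that were not called (adjusted p = 0.274 and 0.0735). The call in WT was lost without WT day 0 replicate 1, 2 or 3 or day 7 replicate 3 or 4 (-0.62 to -0.52, adjusted p = 0.0502 to 0.112). In Card9-/- it was lost without any day 0 replicate or day 7 replicate 1 or 4 (-0.54 to -0.45, adjusted p = 0.0561 to 0.0694), with quantile normalization (-0.44, adjusted p = 0.051) and in the series value table (-0.43, adjusted p = 0.0518). Of 10 genes of columnar colon epithelium outside the members, Cdx2, which specifies the intestinal lineage, and Phgr1 fell in Card9-/- at day 7 (-1.26 ± 0.31 and -1.31 ± 0.24, adjusted p = 0.00685 and 0.000806). These 2 are 20% of the list, near the 19.6% of all genes called there (12.7% lower). In WT 0 of the 10 were called, where 4.32% of all genes were called at day 7.

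Krt23, a type I keratin of epithelial cells, fell at day 7 in WT. Its levels were 2.78, 2.86 and 2.36 at day 0 and 1.59, 1.92, 1.25, 1.38 and 1.24 at day 7, with no overlap. The difference was -1.19 ± 0.29 (adjusted p = 0.0223), and at day 12 it was -1.09 ± 0.29 against day 0 (adjusted p = 0.0573). In Card9-/- the levels were 2.23, 2.11 and 2.22 at day 0 and 1.47, 2.27, 3.35 and 2.26 at day 7, a wider spread on both sides of day 0. The change from day 0 to day 7 differed between genotypes by 1.34 ± 0.42 (unadjusted p = 0.00446), which did not pass adjustment (adjusted p = 0.263). Without WT day 0 replicate 1 or 2 the fall in WT was -1.13 or -1.10 and was no longer called (adjusted p = 0.105 and 0.116).

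Krt7, a type II keratin of ductal and simple epithelia, rose from day 7 to day 12 in Card9-/-. It was 2.83, 2.44, 2.70 and 2.41 at day 7 and 3.18, 3.47, 3.57, 3.12 and 3.12 at day 12, and the groups did not overlap. The rise was 0.69 ± 0.19 (adjusted p = 0.0284), and in WT the difference over the same days was 0.43 ± 0.18 (adjusted p = 0.303). The call was lost without Card9-/- day 7 replicate 2 or 4 or day 12 replicate 2 or 3 (0.63 to 0.65, adjusted p = 0.0691 to 0.0841) and with quantile normalization (0.60, adjusted p = 0.0527).

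Among the small proline-rich proteins, Sprr2h rose in every comparison with day 0. The filter let this gene in through the groups after day 0, in which it is high. Its probe lies at chromosome 3, positions 92191160 to 92191219 (mm9). The WT arrays were at -6.27, -4.54 and -4.14 at day 0, at -3.54, -2.94, -2.33, -1.82 and -2.86 at day 7, and at -1.68, -0.93, -1.97, -2.03 and -2.21 at day 12. The Card9-/- arrays were at -6.99, -5.30 and -5.93 at day 0, at -0.24, -0.82, -1.80 and -1.09 at day 7, and at -0.81, -0.70, 0.31, -2.40 and -1.42 at day 12. Each day 7 and day 12 array lay above every day 0 array of its genotype.

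In WT, Sprr2h rose by 2.28 ± 0.56 at day 7 (4.86-fold, adjusted p = 0.0226) and by 3.22 ± 0.56 at day 12 (9.30-fold, adjusted p = 0.00378). In Card9-/- no day 0 array was well above background, and the rise was at least 12.8-fold at day 7 and at least 12.6-fold at day 12 (adjusted p = 1.27e-05 and 2.29e-05). Such a bound replaces the dim group by the lowest signal well above background on each of its arrays. Only 1 of the 3 WT day 0 arrays was well above background, so the folds in WT are uncertain too. The day 7 call in WT was lost without WT day 0 replicate 1 or 2 or day 7 replicate 4 (1.64, 2.50 and 2.06, adjusted p = 0.197, 0.0564 and 0.0547), with normexp background correction (0.89, adjusted p = 0.138), with quantile normalization (1.87, adjusted p = 0.0919) and in the series value table (0.86, adjusted p = 0.217). The day 12 call in WT was lost without WT day 0 replicate 1 (2.57, adjusted p = 0.0583), and the difference was 1.29 with normexp and 1.54 in the value table. Both calls in Card9-/- held without each array in turn, with 4.61 as the smallest difference. With normexp the differences in Card9-/- were 2.05 and 2.03, and 2.54 and 2.66 in the value table, all called (largest adjusted p = 0.000891) but smaller than the bounds above, which therefore hold only for the scale they were computed on.

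Of the other 4 Sprr genes only Sprr2a1 was called, and as lower. It was -0.77, -1.57 and -1.80 in WT at day 0 and -3.22, -2.38, -2.60, -2.28 and -3.60 at day 7, a fall without overlap (-1.43 ± 0.28, adjusted p = 0.00629). Without WT day 0 replicate 1 the difference was -1.13 (adjusted p = 0.0668), and with normexp it was -0.76 (adjusted p = 0.0179). By day 12 all 5 WT arrays lay between -2.04 and -1.74, a difference from day 7 of 0.96 ± 0.25 that was not called (adjusted p = 0.0862). In Card9-/- Sprr2a1 was -1.76, -1.26 and -1.53 at day 0 and -2.23, -2.04, -1.63 and -1.41 at day 7, and was not called. Sprr2b had group means of -2.69 to -1.87 and Sprr2a2 of 9.05 to 9.33, without a call. The 3 Sprr2a2 probes that passed had mean levels of 9.18, 8.56 and 0.73, and since the Sprr2 genes are close copies, the split of signal among them is uncertain.

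Sprr1a, an envelope precursor that injured epithelia make, was not called in any comparison, though its group means have the order of those of Sprr2h in WT. It was 0.41, 1.09 and 1.81 in WT at day 0, 0.88, 1.5, 2.03, 1.98 and 1.34 at day 7, and 2.39, 2.64, 2.13, 2.93 and 2.80 at day 12. The day 12 values lay above all others of WT, with a difference of 1.47 ± 0.46 from day 0 (adjusted p = 0.116). In Card9-/- it was 1.37, 2.68 and 0.37 at day 0, 2.86, 1.93, 2.71 and 2.79 at day 7, and 2.73, 2.09, 3.80, 1.77 and 2.04 at day 12, with overlap between all 3 days.

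**Figure D2:**
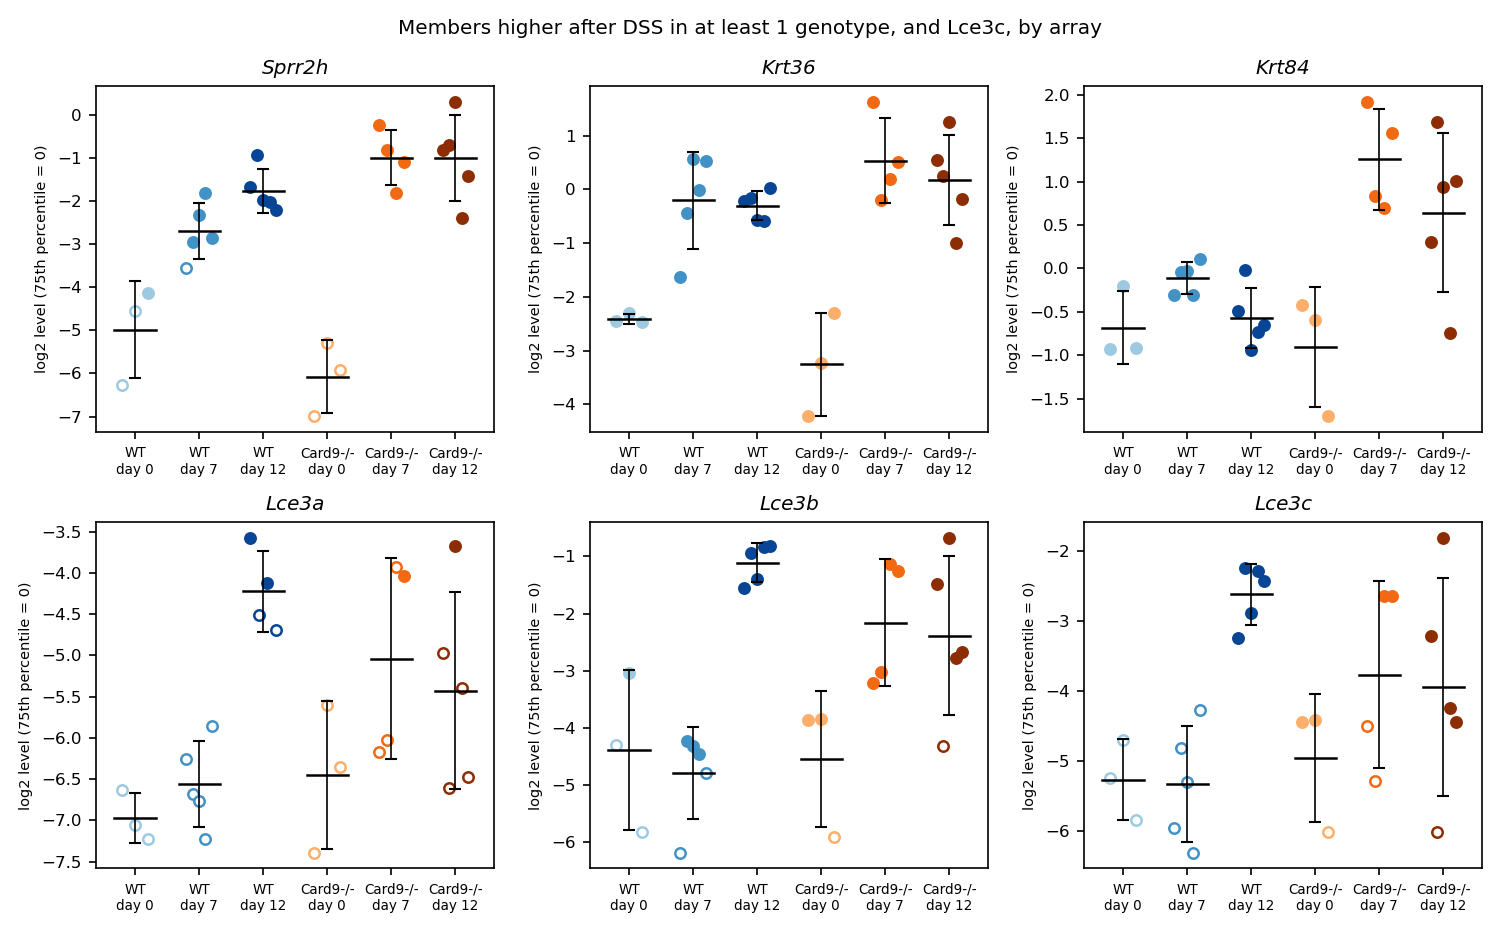
Each panel plots the log2 level of a member on every array (0 is the array's 75th percentile) by genotype and day, with filled points well above background and open points not; the line is the group mean and the bars the SD. Sprr2h and Krt36 lie above day 0 at both later days, the 3 Lce3 genes shown are high on the WT day 12 arrays that hold a value, and Krt84 averages 1.26 at day 7 in Card9-/- and -0.11 in WT.

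Of the 8 late cornified envelope genes measured, Lce3a and Lce3b were called, and the other 6, among them the 4 Lce1 genes, were not. Lce3 genes are the members of the family known for expression in disturbed rather than intact epidermis. Lce3b, with its probe at chromosome 3, positions 92737872 to 92737931 (mm9), was -4.30, -3.04 and -5.83 in WT at day 0 and -6.19, -4.24, -4.32, -4.46 and -4.80 at day 7. At day 12 it was -1.56, -0.94, -1.39, -0.84 and -0.81, above every earlier WT array. The rise from day 7 was 3.69 ± 0.64 (12.9-fold, adjusted p = 0.013) and that from day 0 was 3.28 ± 0.74 (9.75-fold, adjusted p = 0.0251). From day 0 to day 7 the WT difference was -0.41 and was not called. Only 1 of the 3 WT day 0 arrays and 3 of the 5 at day 7 were well above background, so these folds are uncertain. With normexp the rises were 1.78 and 1.74 and 2.29 and 1.99 in the value table, all called (largest adjusted p = 0.0238), and with quantile normalization that from day 0 was not (3.16, adjusted p = 0.0575).

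In Card9-/- the Lce3b levels were -3.87, -3.85 and -5.92 at day 0, -3.21, -3.03, -1.14 and -1.25 at day 7, and -1.49, -4.33, -0.68, -2.78 and -2.67 at day 12. All 4 day 7 arrays lay above the day 0 arrays, and the rise was 2.39 ± 0.78 (5.24-fold, adjusted p = 0.0345). At day 12 the arrays spread across the range of both earlier days, with a difference from day 0 of 2.16 ± 0.74 (adjusted p = 0.0882). The day 7 call was lost without Card9-/- day 0 replicate 3 or day 7 replicate 3 or 4 (1.70, 2.05 and 2.09, adjusted p = 0.197, 0.0984 and 0.0951), with normexp (1.07, adjusted p = 0.0718), in the value table (1.16, adjusted p = 0.0623), with quantile normalization (2.33, adjusted p = 0.0669), with slide as a block (1.95, adjusted p = 0.103) and without the 4 arrays with pancreatic acinar signal described below (2.32, adjusted p = 0.131). In WT the rise from day 7 to day 12 held without each array in turn (3.35 to 3.83). It narrowly missed the threshold without the 4 acinar arrays (3.62, adjusted p = 0.051) and without WT day 7 replicate 5 and day 12 replicate 5 together (3.62, adjusted p = 0.0561). The rise from day 0 to day 12 in WT was lost without WT day 0 replicate 1 or 3 or day 12 replicate 2 or 5 (2.56 to 3.33, adjusted p = 0.0588 to 0.157).

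Lce3c was high on the same WT day as Lce3b. It was -5.25, -4.70 and -5.85 in WT at day 0, -5.96, -4.82, -5.30, -6.31 and -4.27 at day 7 and -3.25, -2.25, -2.89, -2.29 and -2.43 at day 12. No WT array before day 12 was well above background and all 5 at day 12 were, at least 3.64-fold above day 7 (adjusted p = 0.0594) and at least 4.15-fold above day 0 (adjusted p = 0.0714), which was not called. In Card9-/- at day 7 Lce3c was high in replicates 3 and 4 (-2.65 and -2.64), as Lce3b was, and not in replicates 1 and 2 (-4.50 and -5.29). At day 12 its highest arrays were replicates 3 and 1 (-1.82 and -3.21) and its lowest was replicate 2 (-6.01), again as for Lce3b. The Lce3b and Lce3c probes share a run of 28 bases, so some of each signal could come from the other transcript, which was not tested.

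Lce3a was well above background on only 5 arrays, of which 3 were WT day 12 arrays, with levels of -3.58, -4.51, -4.12 and -4.69 there in replicates 2 to 5. The value of replicate 1 was dropped as an outlier spot, so the fit used 4 arrays of that group. At day 0 its WT levels were -6.63, -7.05 and -7.22, and it rose at least 1.40-fold by day 12 (adjusted p = 0.0324). The filter let this gene in through the group in which it is high. The call was lost without any WT day 0 replicate or WT day 12 replicate 2, 3, 4 or 5 (2.53 to 2.91, adjusted p = 0.0535 to 0.132), with quantile normalization (2.25, adjusted p = 0.116) and with normexp (0.57, adjusted p = 0.615). Lce3d, well above background on every array, had group means from -2.18 to -1.45 and was not called. The Lce1 genes, of the family's group in intact epidermis, had group means of 1.25 to 1.83 (Lce1a2), -0.53 to -0.14 (Lce1j), -2.87 to -1.69 (Lce1c) and -4.32 to -3.48 (Lce1m).

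The stretches of 250 bases before the transcription start are printed for the members that were called as higher than at day 0, and for Lce3c, which was not called, because it lies beside Lce3b. They come from RefSeq on GRCm38.p6, which held an entry for 39 of the 51 members, and read 5′ to 3′ toward the start. Capitals mark ATAAAA, a run like the TATA box, searched on the gene's own strand in the last 50 bases, and TGANTCA, the AP-1 motif, searched on both strands of the 250 bases. The ATAAAA run was chosen after the sequences were seen.
Sprr2h: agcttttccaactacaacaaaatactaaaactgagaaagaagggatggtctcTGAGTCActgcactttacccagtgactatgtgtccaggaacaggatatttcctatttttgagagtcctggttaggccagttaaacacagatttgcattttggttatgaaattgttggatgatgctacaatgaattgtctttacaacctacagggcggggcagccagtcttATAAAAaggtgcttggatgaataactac
Lce3a: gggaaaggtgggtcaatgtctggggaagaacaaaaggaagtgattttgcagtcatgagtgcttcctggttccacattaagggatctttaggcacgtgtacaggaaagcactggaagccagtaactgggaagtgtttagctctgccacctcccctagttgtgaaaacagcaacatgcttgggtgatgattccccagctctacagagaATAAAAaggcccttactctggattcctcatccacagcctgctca
Lce3b: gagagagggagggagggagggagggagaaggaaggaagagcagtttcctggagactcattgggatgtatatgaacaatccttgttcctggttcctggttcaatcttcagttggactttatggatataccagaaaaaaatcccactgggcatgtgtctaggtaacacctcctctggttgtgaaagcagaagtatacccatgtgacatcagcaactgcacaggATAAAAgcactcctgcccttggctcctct
Lce3c: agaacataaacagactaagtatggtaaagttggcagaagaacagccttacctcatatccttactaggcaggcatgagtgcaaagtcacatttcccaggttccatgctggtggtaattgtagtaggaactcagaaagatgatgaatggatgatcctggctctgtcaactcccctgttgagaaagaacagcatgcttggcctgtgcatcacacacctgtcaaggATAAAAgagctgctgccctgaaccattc
Krt36: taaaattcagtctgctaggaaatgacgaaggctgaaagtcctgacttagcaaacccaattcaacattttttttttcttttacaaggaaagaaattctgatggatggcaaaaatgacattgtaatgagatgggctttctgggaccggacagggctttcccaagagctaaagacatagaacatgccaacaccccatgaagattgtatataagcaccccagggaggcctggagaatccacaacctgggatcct
Krt84: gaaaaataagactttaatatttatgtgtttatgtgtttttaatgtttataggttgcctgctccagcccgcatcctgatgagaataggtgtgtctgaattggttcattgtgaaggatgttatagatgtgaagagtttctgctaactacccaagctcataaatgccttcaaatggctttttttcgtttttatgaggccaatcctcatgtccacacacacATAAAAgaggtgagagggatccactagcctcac
The windows are chr3:92385435-92385684 (+ strand), chr3:92926231-92926480 (- strand), chr3:92932729-92932978 (+ strand), chr3:92944236-92944485 (+ strand), chr11:100105627-100105876 (- strand) and chr15:101532821-101533070 (- strand). Of these 6 promoters 5 hold ATAAAA, from 28 bases before the start in Sprr2h and Lce3c, 29 in Lce3b, 33 in Krt84 and 44 in Lce3a. Krt36 has no ATAAAA in this window, but it holds TATATAA there, a TATA-like run that was not searched for. Over all members with an entry, 21 of 39 hold ATAAAA in the last 50 bases, and 2.65% of the 32851 mouse promoters do. TGANTCA was found in Sprr2h, 198 bases before the start, and in 4 of 39 members, against 6.75% of all promoters. The STAT motif TTCNNNGAA, on both strands, was in none of the 6, in 3 of 39 members and in 7.02% of all promoters. These matches are letters in a window and no evidence of binding.

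In the list named for keratins of hair and inner root sheath, which also holds Krt12, 3 of the 17 measured were called. In Card9-/- all 3 were called at day 7, 17.6% of the list against 19.6% of all genes, and 11.8% at day 12 against 6.94%. In WT 5.88% of the list was called at each of these days, against 4.32% and 1.73% of all genes. Krt36, a type I keratin of the hair type, rose in both genotypes and stayed high at day 12. Its probe lies at chromosome 11, positions 99963330 to 99963389 (mm9), and was well above background on all 25 arrays. In WT it was -2.45, -2.30 and -2.47 at day 0, -1.63, -0.45, 0.57, -0.02 and 0.52 at day 7, and -0.21, -0.17, -0.58, -0.59 and 0.02 at day 12. In Card9-/- it was -4.22, -3.24 and -2.30 at day 0, 1.63, -0.20, 0.19 and 0.51 at day 7, and 0.54, 0.24, 1.25, -1.0 and -0.18 at day 12. Every DSS array lay above every day 0 array of its genotype.

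Krt36 rose by 2.20 ± 0.51 at day 7 and by 2.10 ± 0.51 at day 12 in WT (4.60-fold and 4.29-fold, adjusted p = 0.0174 and 0.0383). In Card9-/- it rose by 3.79 ± 0.54 and 3.42 ± 0.51 (13.8-fold for the former, adjusted p = 7.57e-05 and 0.000542). Another Krt36 probe, well above background on 23 arrays, gave 2.08, 1.84, 3.08 and 2.78 for the same comparisons. The calls in WT were lost without any 1 of the WT day 0 replicates (2.17 to 2.26 at day 7, adjusted p = 0.0639 to 0.0745, and 2.07 to 2.16 at day 12, adjusted p = 0.125 to 0.16). That at day 12 was also lost without any 1 WT day 12 array or Card9-/- day 0 replicate 2 (2.02 to 2.17, adjusted p = 0.0507 to 0.089) and with normexp (1.55, adjusted p = 0.0652). In Card9-/- both calls held without each array in turn (3.30 to 4.26 and 2.94 to 3.90), and with normexp they were 2.61 and 2.27 (adjusted p = 0.000255 and 0.00287). The Card9-/- day 0 arrays with the lowest Krt36 were also lowest in Hoxb13, a gene of distal colon, which was 1.52 and 3.24 in replicates 1 and 2 and 4.66 to 7.53 on all other arrays. With Hoxb13 as a covariate the rises in Card9-/- were 3.15 and 2.67 (adjusted p = 0.00199 and 0.0288).

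Krt84, a type II hair keratin found in nail and tongue papillae, rose in Card9-/-. It was -0.42, -0.59 and -1.70 at day 0, 1.92, 0.84, 0.70 and 1.56 at day 7, and 0.31, 1.69, 0.94, -0.74 and 1.01 at day 12. The rise was 2.16 ± 0.43 at day 7 (4.45-fold, adjusted p = 0.00126), with no overlap, and 1.54 ± 0.41 at day 12 (2.91-fold, adjusted p = 0.0254), where replicate 4 lay among the day 0 values. In WT, Krt84 was -0.93, -0.20 and -0.92 at day 0, -0.30, -0.04, -0.03, -0.30 and 0.11 at day 7, and -0.49, -0.02, -0.94, -0.73 and -0.65 at day 12, and was not called. The day 7 call in Card9-/- held without each array in turn (1.76 to 2.40). The day 12 call was lost without any 1 of the Card9-/- day 0 replicates or day 12 replicate 2, 3 or 5 (1.14 to 1.78, adjusted p = 0.0512 to 0.15) with slide as a block (1.37, adjusted p = 0.07) and with Hoxb13 as a covariate (1.83, adjusted p = 0.073).

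Krt31, a type I hair keratin, fell in Card9-/- at day 7 from -1.37, -1.32 and -1.34 to -2.09, -1.90, -1.92 and -2.25. The difference was -0.69 ± 0.24 (adjusted p = 0.0434), without overlap. It was lost without any 1 of 17 arrays, the 7 of the comparison and 10 others that enter through the shared spread (-0.74 to -0.62, adjusted p = 0.0501 to 0.115), and with normexp (-0.43, adjusted p = 0.177). The other 14 keratins of this list were not called. Of these, Krt26, Krt28, Krt39, Krt72 and Krt74 were well above background on 3 to 5 arrays, and Krt74 was at -2.30 in WT day 12 replicate 5 against -6.87 to -5.61 in the rest of that group. The brightest Krt85 probe, at 5.38 on average, has no position in the files, while the other Krt85 probes averaged -0.91 and -1.49, so which of them reads Krt85 is uncertain.

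**Figure D3:**
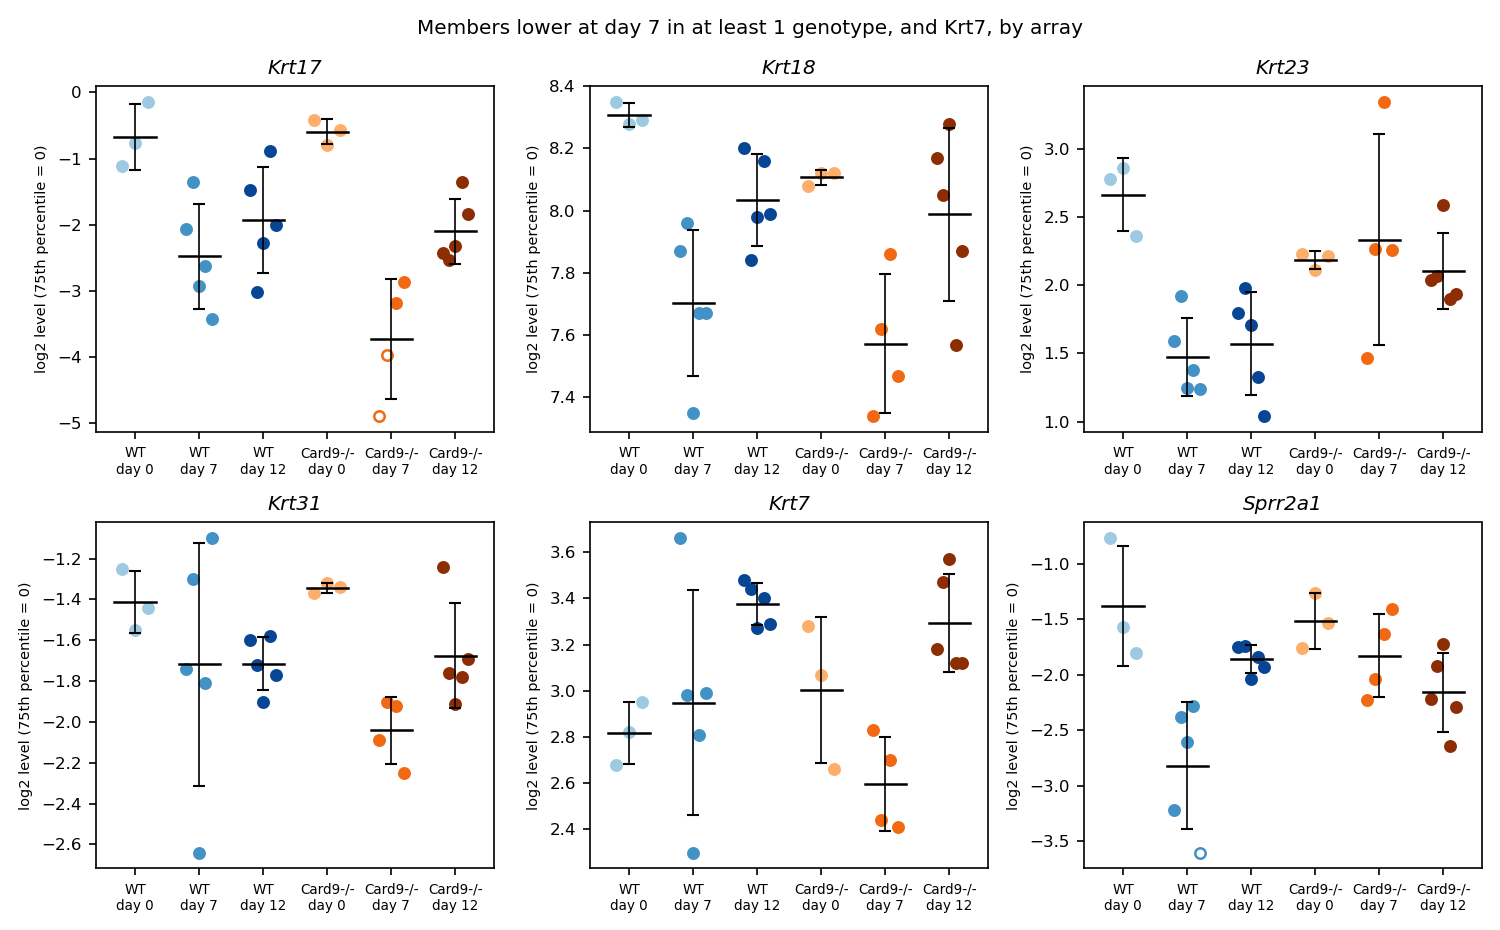
Each panel plots the log2 level of a member on every array (0 is the array's 75th percentile) by genotype and day, with filled points well above background and open points not; the line is the group mean and the bars the SD. Krt17 and Krt18 lie lower at day 7 in both genotypes, Krt23 and Sprr2a1 in WT, Krt31 in Card9-/-, and Krt7 is higher at day 12 than at day 7 in Card9-/-.

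Krt17, a type I keratin that epidermis makes when wounded, fell in the colon of both genotypes. In WT it was -1.11, -0.77 and -0.14 at day 0, -2.07, -1.35, -2.92, -2.62 and -3.43 at day 7, and -1.47, -3.01, -2.27, -0.88 and -2.0 at day 12. In Card9-/- it was -0.42, -0.79 and -0.57 at day 0, -4.89, -3.97, -3.18 and -2.87 at day 7, and -2.43, -2.53, -2.32, -1.36 and -1.84 at day 12. The day 7 arrays lay below the day 0 arrays in both genotypes, and in Card9-/- the day 12 arrays lay between them.

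The fall of Krt17 at day 7 was 3.50-fold in WT (-1.81 ± 0.49, adjusted p = 0.0379) and 8.80-fold in Card9-/- (-3.14 ± 0.51, adjusted p = 0.000259), where 2 of the 4 arrays were not well above background. From day 7 to day 12 it rose in Card9-/- by 1.63 ± 0.45 (adjusted p = 0.0295). The day 7 call in WT was lost without any WT day 0 replicate or day 7 replicate 3, 4 or 5 (-2.02 to -1.54, adjusted p = 0.0693 to 0.176) with quantile normalization (-2.09, adjusted p = 0.0538) and with slide as a block (-1.75, adjusted p = 0.0639), and with normexp it was smaller but called (-1.10, adjusted p = 0.0356). That in Card9-/- held without each array in turn (-3.42 to -2.75), and with normexp and in the value table it was -1.65 and -2.09 (adjusted p = 0.000682 and 0.000205), so the fold depends on the background correction. The rise to day 12 was lost without Card9-/- day 7 replicate 1 or 2 or day 12 replicate 4 or 5 (1.24 to 1.57, adjusted p = 0.0668 to 0.0882), with normexp (0.60, adjusted p = 0.184), with quantile normalization (1.70, adjusted p = 0.0715) and in the value table (0.93, adjusted p = 0.0626). Krt16, the other stress keratin among the members, had group means of -0.98 to -0.41 and was not called. Krt6b, a stress keratin outside the rule, rose in Card9-/- at day 7 (1.81 ± 0.37, adjusted p = 0.00169).

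With the probe that stood for each gene, the keratins of squamous epithelium showed no called change. Krt5, Krt14 and Krt15, the basal layer keratins, had group means of -4.49 to -3.79, -2.22 to -1.82 and -3.94 to -3.58. Of the 8 suprabasal and mucosal keratins, Krt10 and Krt13, of epidermis and of mucosa such as the oesophagus, had group means of 1.71 to 2.04 and 2.90 to 3.25. Krt4, the type II partner of Krt13, was well above background on 4 arrays. For Krt13 another probe, well above background on 10 arrays, averaged -4.60 against 3.08 for the one used. Its differences from day 0 at days 7 and 12 were 1.96 and 2.81 in WT and 0.97 and 2.81 in Card9-/-. The probe used gave -0.33, -0.15, -0.29 and 0.02, so both level and change depend on the probe. Another Krt78 probe, well above background on 7 arrays, gave 1.22, 1.08, 2.27 and 0.85, against 0.31, 0.05, 1.17 and 0.73. Krt42 and Krt222, in no role list, had group means of 6.16 to 6.41 and 3.91 to 4.62 and were not called. Another probe of each, well above background on 1 array, averaged -6.41 and -6.24 against 6.28 and 4.32 for those used. Their levels too depend on the probe.

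**Figure D4:**
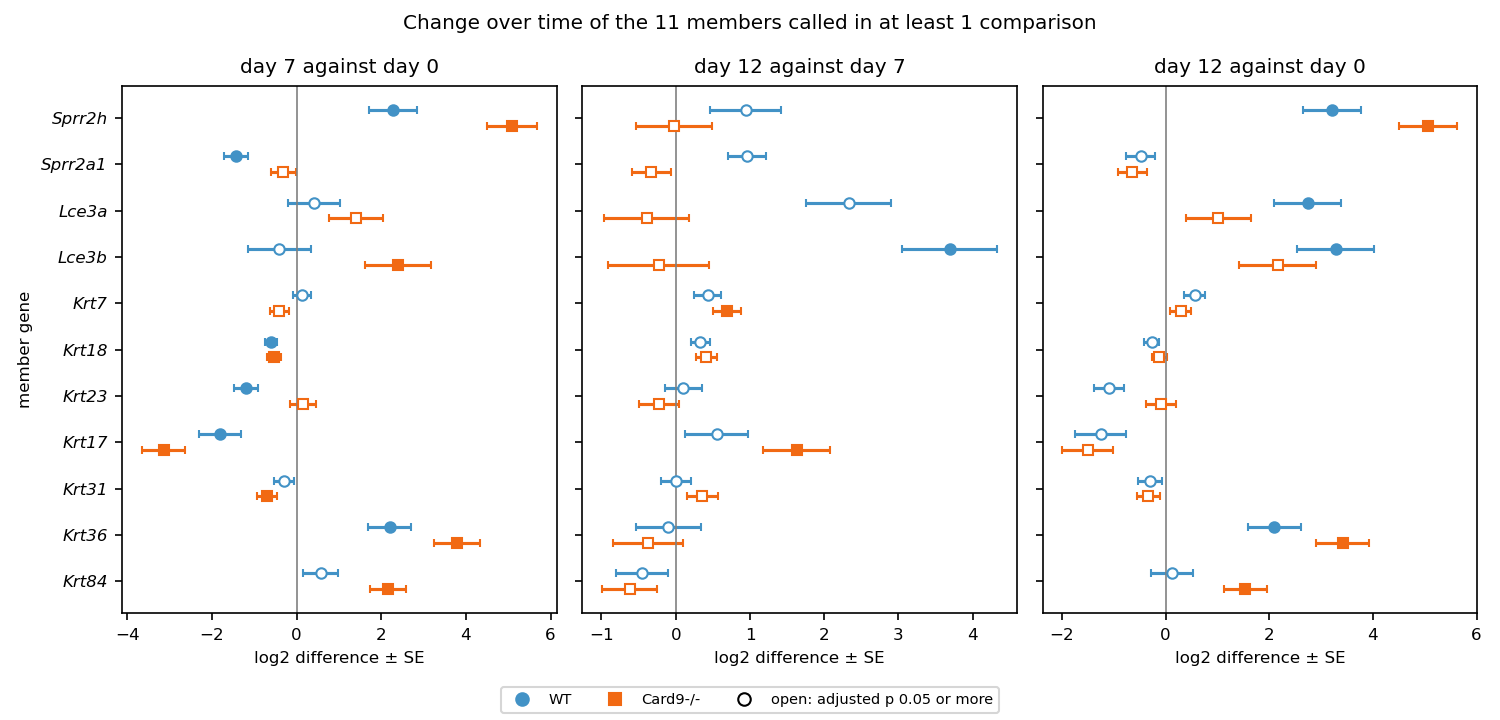
Points show the log2 difference over time, with bars of 1 SE, for the 11 members called in at least 1 comparison, in WT (blue circles) and Card9-/- (orange squares); filled points had an adjusted p under 0.05. Sprr2h and Krt36 lie to the right of 0 against day 0 in both genotypes, Lce3b has its largest difference in WT from day 7 to day 12, and Krt17 lies furthest to the left at day 7.

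Between genotypes 0 of the 51 members were called on any day, where 0.00392%, 0.549% and 0.0706% of all genes were called with limma at days 0, 7 and 12. At an unadjusted p under 0.05 there were 0, 9 and 3 members, and 4.97%, 16.5% and 8.85% of all genes. The share of members at day 7 was thus near that of all genes. The day 7 differences, Card9-/- minus WT, of Lce3b (2.64 ± 0.68, adjusted p = 0.0696), Sprr2a1 (0.99 ± 0.26, adjusted p = 0.0726), Krt84 (1.37 ± 0.37, adjusted p = 0.0774) and Sprr2h (1.71 ± 0.51, adjusted p = 0.103) were not called. Without WT day 7 replicate 3, Lce3b, Sprr2a1, Krt84, Sprr2h and Krt31 were called, 5 members, among 2266 genes. Without Card9-/- day 7 replicate 1, Lce3b, Sprr2a1 and Krt23 were called, 3 members, among 653 genes. Leaving out any other single array left 0 members called at day 7. With slide as a block Lce3b and Sprr2a1 were called, 2 members, among 357 genes.

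The test of whether genotypes differed in their change over time called 0 members from day 0 to day 7, from day 7 to day 12 and from day 0 to day 12 (0.00392%, 0.00784% and 0.00392% of all genes). At an unadjusted p under 0.05 there were 6, 4 and 3 members, and 11.6%, 7.71% and 6.83% of all genes. From day 7 to day 12 the change of Lce3b differed by -3.92 ± 0.94 (unadjusted p = 0.000439, adjusted p = 0.297), Lce3c by -2.89 ± 0.93 (adjusted p = 0.486) and Lce3a by -2.72 ± 0.80 (adjusted p = 0.434). From day 0 to day 7 that of Sprr2h differed by 2.81 ± 0.81 (unadjusted p = 0.00237, adjusted p = 0.253). An effect called in 1 genotype only is therefore not shown to differ between them.

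The 4 slides of arrays each held several groups. Within the slides that held both groups, the difference of Sprr2h in Card9-/- at day 7 was 5.38 to 5.91, that of Krt36 was 4.40 to 4.73 and that of Krt17 was -4.21 to -2.45, over 2 slides each. That of Lce3b in WT from day 7 to day 12 was 3.24 to 5.08 over 4 slides. Since most called groups do not overlap, the direction within a slide is largely given by the call. With slide as a block the calls of Krt36 in WT at day 12 (2.17, adjusted p = 0.0502), Krt17 in WT at day 7, Krt84 in Card9-/- at day 12 and Lce3b in Card9-/- at day 7 were lost, the last 3 with the values given above.

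Other genes of the cornified envelope and of squamous epithelium were measured beside the members, from lists chosen with earlier results known. Of 20 other envelope genes, Tgm5, a transglutaminase of keratinocytes, rose in WT at day 7 (1.29 ± 0.34, adjusted p = 0.0344) and at day 12 (2.06 ± 0.34, adjusted p = 0.00267) and in Card9-/- at day 12 (1.57 ± 0.34, adjusted p = 0.00842). The lipid transporter gene Abca12 fell in Card9-/- at day 7 (-4.3 ± 1.17, adjusted p = 0.0126), and the list had no other call over time. Each of these calls was the only one of its comparison, 5% of the list. Of all genes, 4.32% and 1.73% were called in WT at days 7 and 12 against day 0, and 19.6% and 6.94% in Card9-/-. Rptn, Hrnr, Tchhl1 and Krtdap were not measured.

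Of 12 squamous epithelium genes measured, 2 rose in WT at day 12 against day 0 (16.7%, where 1.13% of all genes were called as higher), 2 in Card9-/- at day 7 (16.7%, against 6.9%) and 3 in Card9-/- at day 12 (25%, against 3.7%). None of the 12 fell in these comparisons, and Grhl3 rose again in Card9-/- from day 7 to day 12 (2.12 ± 0.41, adjusted p = 0.00489). These were Sfn, a 14-3-3 protein of epithelia, in WT and Card9-/- at day 12 (0.94 ± 0.21 and 0.77 ± 0.21, adjusted p = 0.0198 and 0.027), and Lypd3 in WT at day 12 (at least 2.59-fold, adjusted p = 0.0188). In Card9-/- they were also Ly6d at days 7 and 12 (3.50 ± 0.80 and 3.89 ± 0.76, adjusted p = 0.00373 and 0.0042) and Grhl3, a transcription factor of barrier formation (at least 2.24-fold and at least 9.71-fold, adjusted p = 0.0139 and 3.64e-05). Lypd3 in WT and Grhl3 in Card9-/- were well above background on no day 0 array of that genotype. Their signal lies in the groups in which they are high, so their calls in these shares are no support for a change of the list. Both also enter the list mean. The mean of the list relative to WT day 0 was -0.14 to 0.17 in WT and -0.23 to 0.28 in Card9-/- at day 0, 0.13 to 0.90 and 0.18 to 0.61 at day 7, and 0.69 to 1.12 and 0.63 to 1.37 at day 12. At day 12 every array of both genotypes lay above every day 0 array in this mean, as for Sprr2h and Krt36. Elsewhere the orders of arrays match in part. In Card9-/- at day 12, replicate 3 had the highest list mean (1.37) and the highest Sprr2h, Krt36 and Lce3b. Replicate 4 had the lowest list mean (0.63) and the lowest Sprr2h, Krt36 and Krt84, while Lce3b was lowest and Krt84 highest in replicate 2. In WT, 3 of the 5 day 7 arrays exceeded every day 0 array in this mean and 0 did for Lce3b. Card9-/- day 7 replicate 3, with the highest Lce3b of its group, had the lowest list mean (0.18). Trp63, the regulator of squamous basal cells, had group means of 2.84 to 3.07 without a call, and Dsc3, Dsg1a, Col17a1 and Gjb6 were not measured. The part of squamous tissue in the members' values was not tested.

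The remaining lists held few calls. Of 8 genes of the desmosomes that anchor keratin filaments, Eppk1, a plakin that binds keratins, fell in Card9-/- at day 12 against day 0 (-0.70 ± 0.19, adjusted p = 0.0338). That is 12.5% of the list against 6.94% of all genes. Of the 10 columnar genes, Cdx1 rose in Card9-/- from day 7 to day 12 (0.40 ± 0.11, adjusted p = 0.0317), 10% against 7.69% of all genes. Of 5 distal colon genes, Hoxb13 was higher in Card9-/- at days 7 and 12 than at day 0 (2.41 and 2.84, adjusted p = 0.0424 and 0.0317). That is 20% each time, against 19.6% and 6.94% of all genes. The 6 hair follicle genes, 5 mesothelium genes and 11 pancreatic acinar genes measured had 0 calls with limma in any comparison, and at most 2, 3 and 8 of them reached an unadjusted p under 0.05 in 1 comparison.

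Markers of another organ were high in 4 arrays. Relative to WT day 0, the mean of 11 pancreatic acinar genes reached 13.66 and 14.03 (Card9-/- day 7 replicates 2 and 3), 13.04 (replicate 1 of Card9-/- day 12) and 7.60 (replicate 5 of WT day 12), and -0.68 to 2.60 on the other arrays. Without those 4 arrays the rises of Sprr2h were 3.33 in WT at day 12 and 5.41 and 5.02 in Card9-/- at days 7 and 12 (adjusted p = 0.0155, 0.000831 and 0.000363). Krt36 rose by 4.32 and 3.33 in Card9-/- (adjusted p = 0.0016 and 0.00331), Krt84 by 2.64 and 1.62 (adjusted p = 0.00434 and 0.0314), and Krt17 fell at day 7 (-3.29, adjusted p = 0.00507). The rises of Krt36, Lce3a and Lce3b in WT at day 12 were then not called (2.02, 2.90 and 3.21, adjusted p = 0.0983, 0.0589 and 0.0703), and neither were those of Krt7 and Krt17 in Card9-/- from day 7 to day 12 (0.69 and 1.87, adjusted p = 0.191 and 0.134). Also lost were the falls of Krt17 in WT and Krt31 in Card9-/- at day 7 (-1.81 and -0.83, adjusted p = 0.0634 and 0.0714).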

How the data were processed

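Total RNA of colon from 25 mice was labelled with Cy3 and hybridised to single-colour Agilent arrays, 1 mouse per array, per the labels' protocols. The authors deposited spot intensity values on a linear scale from Agilent Feature Extraction 10.7.3.1, background-subtracted, detrended and not normalized between arrays, per the file headers. The deposited series value table holds 33418 probes on a log2 scale, with its normalization unstated in the sources at hand, and served as an alternative with 46 of the 51 members.

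The processed intensity was taken as log2 minus the array's 75th percentile over spots that are not controls. Control spots and outlier spots were left out, spots of a probe were averaged, probes well above background on at least 3 arrays were kept, and the probe with the highest mean stood for a gene. This gave 25500 genes, 103 member probes before the filter, and 9 members with several passing probes. Of the probes, 27656 were named through a RefSeq accession, 3722 through a symbol or synonym, and 24303 kept the name in the file. Members keep the name in the files, and Krt83 is now called Krt87.

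A model of the 6 group means used lmFit and eBayes of limma 3.58.1 (R 4.3.3), with Benjamini-Hochberg adjustment within each comparison. The fit was tested on simulated data. Figures were drawn with matplotlib in Python. Groups were taken from the labels, and p-values measure the spread between mice. Named are every member called in at least 1 comparison, every measured Sprr and Lce gene, the main keratins of each role whether or not called, and up to 4 called genes per list outside the members. The members, lists and tests were chosen with earlier results of these data known. Alternatives were normexp with an offset of 50, quantile normalization, the value table, a filter of 13 arrays or none, each probe tested separately, slide or replicate number as a block, a fit on the compared groups alone, leaving out each array, and 3 that were chosen after seeing the data, which leave out arrays or add Hoxb13 as a covariate. The design text names another Card9-/- day 7 mouse, which was not analysed here.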

Additional observations from a re-analysis of the deposited data

Results flagged for a closer look

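Values of 2 called members lay far from the rest of their group. Lce3b was -6.19 in WT day 7 replicate 1, below the other 4 arrays of the group (-4.80 to -4.24). Krt23 was 2.59 in Card9-/- day 12 replicate 3, above the other 4 (1.90 to 2.07). Among 204 combinations of member and group of 4 or 5 arrays, 13 had such a value, 3 of them in WT day 12 replicate 5, and chance gives about 1 in 20.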

How the results depend on the processing

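Of 849 values of the 23 called differences under the alternatives, 709 kept direction and call, 140 kept direction but missed the threshold, and 0 changed direction. Much of this was fixed in advance. Leaving out an array outside the compared groups, changing the filter or fitting the compared groups alone left the difference as it was. The absence of a change of direction is therefore no support for these calls. Under all 12 alternatives that do not leave out single arrays, the calls of Sprr2h in WT at day 12 and in Card9-/- at days 7 and 12, Krt36 in Card9-/- at days 7 and 12, and Krt17 and Krt84 in Card9-/- at day 7 held. The counts over all genes moved under these 12 alternatives too, and were 1 to 369 between genotypes at day 7. In WT they were 38 to 1305 at day 7 against 0, 0 to 220 at day 12 against 7 and 246 to 649 at day 12 against 0. In Card9-/- they were 2396 to 5288, 247 to 2315 and 504 to 2001. The count of called members moved as follows, and the cause was not tested. At day 7, Card9-/- against WT went from 0 to 1 with a filter of 13 arrays and 2 with slide as a block. WT at day 7 against day 0 went from 6 to 0 in the fit on its groups alone, which has fewer arrays. WT at day 12 against day 7 went from 1 to 2 with quantile normalization, the value table and a filter of 13 arrays, which added Lce3c, and to 0 in the fit on its groups alone, without the 4 acinar arrays and without the 2 arrays with most probes above background. WT at day 12 against day 0 went from 4 to 2 with normexp and with quantile normalization, and to 1 without the 4 acinar arrays and without the 2 arrays. Card9-/- at day 12 against day 7 went from 2 to 0 with quantile normalization and without the 4 acinar arrays, and to 1 with the value table and the fit on its groups alone. Leaving out each array in turn gave 0 to 5 members for the genotypes at day 7, 0 to 7, 1 to 3 and 0 to 5 for WT at day 7 against 0, 12 against 7 and 12 against 0, and 4 to 7, 0 to 3 and 2 to 4 for Card9-/-. Over all genes it gave 4 to 2266 for the genotypes at day 7, and the ranges over time are given above. Replicate numbers mark different mice, and arrays of the same number did not deviate together (correlation -0.403 to 0.262 over 12 pairs, and -0.407 to 0.454 over 42 pairs of unlike number). With the replicate block the count was 1 for WT at day 12 against day 0 and 4 for Card9-/- at day 7 against day 0, where Krt18, Krt31 and Lce3b were lost. The number of arrays limits precision, and dim members such as Lce3a have differences that depend on the background correction.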

Other observations

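A pair of keratins beside the rule also had calls over time. Krt90, which the array files list under a clone name, was well above background on no day 0 array of either genotype. It rose at least 3.28-fold in WT at day 12 (adjusted p = 0.0234) and at least 4.11-fold and 10.2-fold in Card9-/- at days 7 and 12 (adjusted p = 0.0016 and 0.000391). Krt90 thus passed the filter through groups after day 0, in which it is high, so its calls are no support for a change of keratins. Krt6b, a stress keratin, rose in Card9-/- at day 7 by 1.81 ± 0.37 (adjusted p = 0.00169), where Krt17, of the same role, fell, and its difference in WT was 0.98 ± 0.36 (adjusted p = 0.134). Both were chosen with earlier results of these data known.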
